A study of Homo sapiens with 6 samples.

Results

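The LIM homeobox genes examined here were LHX1, LHX2, LHX3, LHX4, LHX5, LHX9, LMX1A, LMX1B, ISL1 and ISL2, a list of 10 genes taken by symbol from a table of 50883 gene symbols. The table held 9 of them, and LHX1 was not analysed here. The libraries came from D283, an established human medulloblastoma cell line, and medulloblastoma is a malignant tumour of the cerebellum. In the OTX2 knockout group, D283 cells were infected with a lentivirus for an OTX2 guide RNA, and in the control group with one for a non-targeting guide. Both viruses expressed GFP, each group comprised 3 infections, and cells were collected after 7 days for sequencing of total RNA. Neither the nuclease, the number of guides nor the edited share of cells is stated in the labels. By its title, the study asked about the rhombic lip, an embryonic germinal zone of the cerebellum, as a source of Group 3 and Group 4 medulloblastoma.

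LIM homeobox proteins are transcription factors that join a pair of LIM domains, which bind other proteins, to a homeodomain, which binds DNA. The cofactor LDB1 forms dimers and bridges LIM homeobox proteins into larger complexes, and LIM-only (LMO) proteins compete with them for LDB1. Combinations of these factors, known mainly from mouse, set neuronal identity: ISL1 with LHX3 in spinal motor neurons, LHX2 and LHX9 in dorsal interneurons and in cerebellar nuclear neurons of the rhombic lip, LHX1 and LHX5 in Purkinje cells, and LMX1A in the roof plate and rhombic lip. Most members come in paralog pairs, LHX1 with LHX5, LHX2 with LHX9, LHX3 with LHX4, LMX1A with LMX1B and ISL1 with ISL2.

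The regions in front of the transcription starts of LHX4, ISL1 and ISL2 are shown because these genes differed between the groups and their starts have upstream sequence outside annotated exons. They are printed 5′ to 3′ on the gene's strand, which is the plus strand for each, from RefSeq on GRCh38 patch 14. LHX4 is shown at chr1:180230014-180230263, ISL1 at chr5:51383198-51383390 and ISL2 at chr15:76336523-76336723. Capitals mark TAATCC, the bicoid-type site that OTX2 binds, searched on both strands.
LHX4: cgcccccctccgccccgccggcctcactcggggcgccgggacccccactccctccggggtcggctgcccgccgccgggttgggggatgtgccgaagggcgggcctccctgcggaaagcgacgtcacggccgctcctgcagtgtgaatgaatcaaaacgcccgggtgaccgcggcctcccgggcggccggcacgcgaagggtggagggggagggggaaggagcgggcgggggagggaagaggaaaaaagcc
ISL1: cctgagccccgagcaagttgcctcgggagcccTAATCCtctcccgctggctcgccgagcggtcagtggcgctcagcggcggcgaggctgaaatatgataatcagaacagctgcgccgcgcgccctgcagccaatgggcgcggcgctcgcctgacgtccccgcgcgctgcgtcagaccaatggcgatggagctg
ISL2: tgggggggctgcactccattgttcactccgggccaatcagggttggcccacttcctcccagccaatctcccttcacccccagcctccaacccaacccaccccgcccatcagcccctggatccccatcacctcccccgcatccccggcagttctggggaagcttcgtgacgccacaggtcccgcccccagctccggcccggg
Windows of 300 bases, from 250 before to 50 after a start, were searched for 8 members with 12 windows. The ISL1 window held TAATCC on the gene's strand, and it was the only 1 of the 12 windows with a match (8.33%). The first base of the match was at -218 from the RefSeq start of that window. This RefSeq start lies downstream of the GENCODE start of ISL1, and the printed stretch ends just before the GENCODE start. Among 35116 windows of all genes 6.36% held the motif. TAATTA, the type of site bound by LIM homeodomains and identical on both strands, was in 0 of the 12 windows and in 4.84% of all windows. GC content of the 12 windows lay between 61.7% and 82%. Both LHX9 windows lie almost wholly in annotated LHX9 exons and are not printed. A match of letters is not evidence of binding.

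Counts per library summed to between 60561438 and 62166870 in OTX2 knockout cells and between 54540645 and 61662466 in control cells. Levels are given as CPM, read counts divided by library sizes that were adjusted with TMM, the trimmed mean of M values. Tests used edgeR, and p values were adjusted by the Benjamini-Hochberg (BH) method. OTX2 itself was at 765, 824 and 887 CPM in OTX2 knockout libraries, against 1002, 979 and 909 CPM in control libraries, with a log2 fold change of -0.22 (SE 0.06, BH-adjusted p = 0.00646 in edgeR). An edited gene can still be transcribed and the edited share of cells is not stated, so this level says little about the labels. The cause of this level was not tested. Of 8 markers of Group 3 medulloblastoma, 7 were detected at over 1 CPM in every library and fell in OTX2 knockout cells, OTX2 among them, and the summed level of the 8 was 3123 to 3688 CPM in OTX2 knockout libraries and 4455 to 4770 CPM in control libraries. The smallest adjusted p values of this list were those of IMPG2, NRL, GABRA5 and NPR3. EOMES was below 1 CPM in all 6 libraries. Of 14 markers of other cell types, 11 were below 1 CPM in every library, 0 were at 0 in all 6, and their summed level was 16.9 to 17.9 CPM in OTX2 knockout libraries, against 14.5 to 16.1 CPM in control libraries. VWF, ACTA2 and PECAM1 rose and CSF1R fell, the PECAM1 call being lost without OTX2 knockout replicate 1 or control replicate 2. PECAM1, with 19, 12 and 11 reads in OTX2 knockout libraries against 2, 2 and 7 in control libraries, reached the count limit only through the OTX2 knockout libraries. The part of other cells in the results was not tested. Mitochondrially encoded genes took 0.531% to 0.601% of counts in OTX2 knockout libraries, against 0.440%, 0.449% and 0.764% in control libraries, the last of these in control replicate 1. Across 18420 tested genes, 39.7% passed the threshold of an adjusted p under 0.05, with 3908 higher in OTX2 knockout cells (21.2%) and 3404 lower (18.5%). With library totals in place of TMM, 5210 were higher and 2034 lower.

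Of the 9 members in the table, 6 had enough counts to be tested, and all 6 of these also passed the same count limit in the control libraries alone. LHX4, LHX9 and ISL1 rose in OTX2 knockout cells and ISL2 fell, while LHX2 and LHX3 did not pass the test (quasi-likelihood F test of edgeR, with p adjusted over all tested genes). That is 3 members higher and 1 lower, beside backgrounds of 21.2% and 18.5% of all tested genes. The 4 members that passed had no overlap in CPM between groups, with 3 of them higher and 1 lower. Among all tested genes 49.2% had none, with 26.2% higher and 23% lower. The median log2 fold change of the 6 tested members was 0.34, and that of all tested genes was 0.01. In these bulk libraries, fewer cells of a type and less RNA per cell cannot be told apart.

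**Figure D1:**
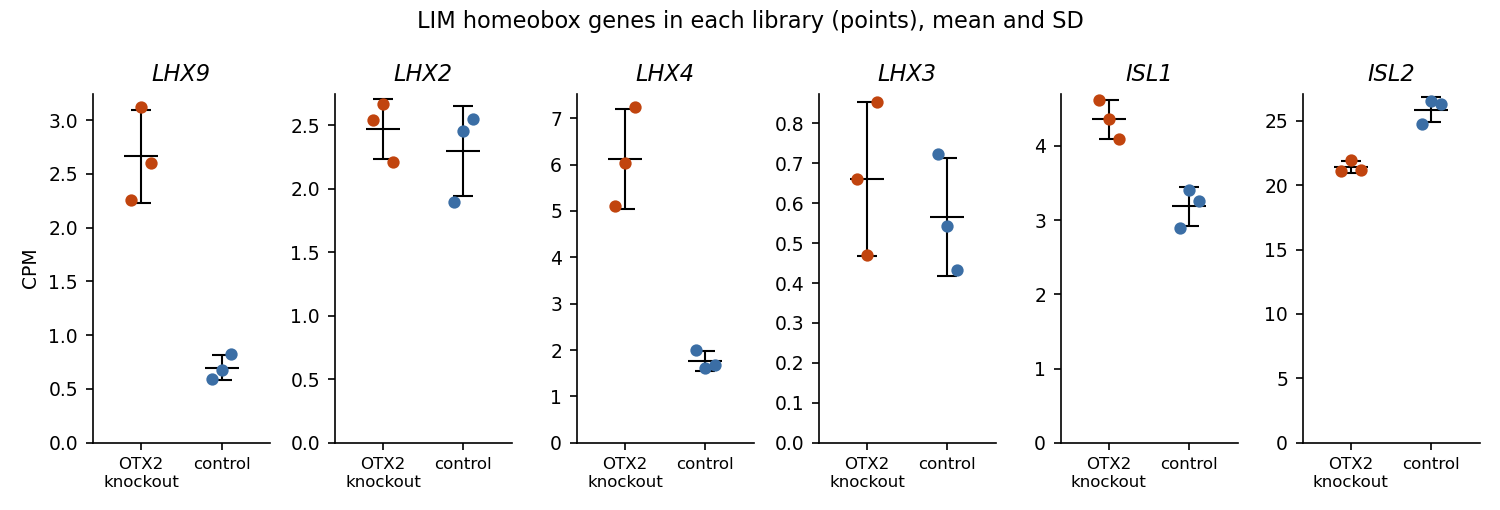
Levels of the 6 tested LIM homeobox genes in CPM (vertical axes, each from 0 and with its own scale) in the 3 OTX2 knockout libraries (left, orange) and the 3 control libraries (right, blue). Points are libraries and black marks are mean and SD. LHX9, LHX4 and ISL1 lie higher and ISL2 lower in OTX2 knockout libraries without overlap, while LHX2 and LHX3 overlap.

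LHX9, a factor of dorsal interneurons, cerebellar nuclear precursors and the gonad, rose. LHX9 spans 197911902 to 197935478 of chromosome 1 (plus strand, GRCh38, GENCODE release 29). LHX9 was at 2.26, 3.12 and 2.61 CPM in OTX2 knockout libraries, from 144, 193 and 165 reads. In control libraries LHX9 was at 0.596, 0.677 and 0.825 CPM, from 33, 40 and 44 reads. Every OTX2 knockout library was above every control library. The ratio of means for LHX9 was 3.81, with a log2 fold change of 1.93 (SE 0.17, BH-adjusted p = 4.65e-07 in edgeR). Without control replicate 1, whose mitochondrial share was highest, the log2 fold change of LHX9 was 1.82.

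LHX2, the paralog of LHX9 and a regulator of forebrain, eye and hair follicle development, did not follow it. LHX2 spans 124001670 to 124033301 of chromosome 9 (plus strand). LHX2 was at 2.54, 2.67 and 2.21 CPM in OTX2 knockout libraries, against 1.90, 2.46 and 2.55 CPM in control libraries. The groups overlapped, and the lowest value was that of control replicate 1. Its log2 fold change was 0.10 (95% interval -0.19 to 0.39, BH-adjusted p = 0.585 in edgeR), so the interval leaves room for small changes in either direction. Without control replicate 1 it was -0.020. Exons of an antisense RNA, AC006450.2, cover 105 bases of LHX2 exons.

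LHX4, which acts with LHX3 in pituitary and motor neuron development, rose too, and its 95% interval overlapped that of LHX9, since the upper bound for LHX4 was 2.10 and the lower bound for LHX9 was 1.56 on the log2 scale. LHX4 had the larger log2 fold change of the pair without OTX2 knockout replicate 2 or control replicate 1. LHX4 spans 180230286 to 180278982 of chromosome 1 (plus strand). LHX4 was at 5.10, 6.03 and 7.25 CPM in OTX2 knockout libraries, from 325, 373 and 459 reads. In control libraries LHX4 was at 2.004, 1.61 and 1.67 CPM, from 111, 95 and 89 reads. The groups were well apart, and the spread was wider among OTX2 knockout libraries, with an SD of 1.08 CPM, than among control libraries, with an SD of 0.213 CPM. The ratio of means for LHX4 was 3.48, with a log2 fold change of 1.80 (SE 0.14, BH-adjusted p = 9.38e-08 in edgeR). The LHX4 count is uncertain, because exons of ACBD6 on the opposite strand cover 1866 of its 6061 exon bases and strand-specific counting is not stated. ACBD6 was not analysed here.

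LHX3, the paralog of LHX4 and a selector of motor neurons and of pituitary cell types, had the fewest reads of the tested members. LHX3 spans 136196250 to 136205128 of chromosome 9 (minus strand). LHX3 was at 0.659, 0.469 and 0.853 CPM in OTX2 knockout libraries, from 42, 29 and 54 reads. In control libraries LHX3 was at 0.722, 0.542 and 0.431 CPM, from 40, 32 and 23 reads. The groups overlapped, and the log2 fold change of LHX3 was 0.22 (SE 0.26, 95% interval -0.33 to 0.78, BH-adjusted p = 0.536 in edgeR). Without OTX2 knockout replicate 3 it was -0.010.

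ISL1, a factor of motor neurons, sensory neurons, retinal ganglion and bipolar cells and pancreatic islets, rose by a smaller amount. ISL1 spans 51383391 to 51394738 of chromosome 5 (plus strand). ISL1 was at 4.62, 4.37 and 4.09 CPM in OTX2 knockout libraries, against 2.89, 3.404 and 3.26 CPM in control libraries. The groups did not overlap. The ratio of means for ISL1 was 1.37, with a log2 fold change of 0.45 (SE 0.10, BH-adjusted p = 0.00253 in edgeR). Tested against a 1.5-fold change, ISL1 was not called.

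ISL2, the paralog of ISL1 and a factor of motor neurons and of a subset of retinal ganglion cells, fell. ISL2 spans 76336724 to 76342476 of chromosome 15 (plus strand). ISL2 was at 21.1, 22.0 and 21.2 CPM in OTX2 knockout libraries, from 1343, 1358 and 1342 reads. In control libraries ISL2 was at 24.7, 26.5 and 26.3 CPM, from 1370, 1565 and 1402 reads. The groups did not overlap after scaling. Its mean was 1.21-fold higher in control, with a log2 fold change of -0.27 (SE 0.05, BH-adjusted p = 0.000794 in edgeR). The change was -0.19 with library totals in place of TMM, and ISL2 was not called against a 1.5-fold change. An antisense RNA, AC027243.1, overlaps 389 bases of ISL2 exons, so part of its count is uncertain.

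LMX1A, LMX1B and LHX5 were at or near 0. LMX1A, the roof plate and rhombic lip factor, had 1, 2 and 0 reads in OTX2 knockout libraries and 0 in each control library. LMX1B, which acts in limb, kidney and midbrain and serotonergic neurons, had 2 reads in each OTX2 knockout library, against 3, 1 and 0 in control libraries. Its ratio of summed counts was 1.33, with an exact 95% counting interval of 0.316 to 6.42. LHX5 had 0 reads in all 6 libraries, which allows up to 0.0159 CPM in OTX2 knockout cells and 0.0179 CPM in control cells over each group, taking 3 counts as the limit. No difference was detectable at this depth for these genes, and intervals and limits cover counting error only.

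**Figure D2:**
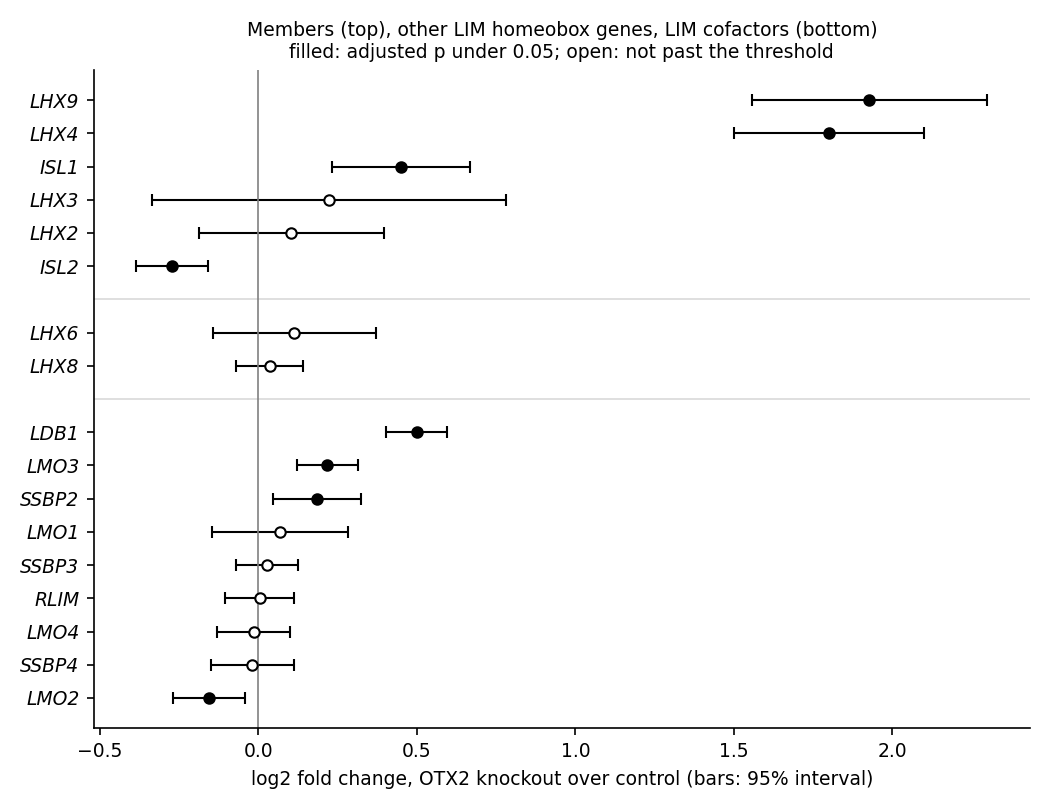
Log2 fold change of OTX2 knockout over control (horizontal axis) with 95% intervals for the 6 tested members (top), LHX6 and LHX8 (middle) and 9 LIM cofactor and LIM-only genes (bottom). Filled points had an adjusted p under 0.05. LHX9 and LHX4, at 1.93 and 1.80, stand far from the other genes drawn, and LDB1 at 0.50 leads the cofactors.

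The balance within each measured paralog pair lay in a separate range in each group. A ratio of counts within a library does not depend on library scaling. LHX9 reads per LHX2 read were 0.889, 1.17 and 1.18 in OTX2 knockout libraries, against 0.318, 0.278 and 0.326 in control libraries. LHX3 reads per LHX4 read were 0.131, 0.0790 and 0.119 in OTX2 knockout libraries, against 0.363, 0.340 and 0.263 in control libraries. ISL1 reads per ISL2 read were 0.219, 0.199 and 0.193 in OTX2 knockout libraries, against 0.117, 0.129 and 0.124 in control libraries. The groups did not overlap in any of the 3 pairs. Each pair holds a member whose CPM did not overlap on its own, as for 49.2% of all tested genes. The ratios are thus not separate from those differences, and the share of all gene pairs without overlap was not computed. On the log2 scale the ratio differed by 1.80 for LHX9 to LHX2, by -1.58 for LHX3 to LHX4 and by 0.72 for ISL1 to ISL2 (OTX2 knockout minus control). Each had an exact two-sided permutation p of 0.1, which is the smallest that 3 against 3 libraries allow, and 0.1 after adjustment over the 3 pairs, so the design cannot pass the threshold. The overlap of LHX4 with ACBD6 and of ISL2 with AC027243.1 bears on their ratios too.

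**Figure D3:**
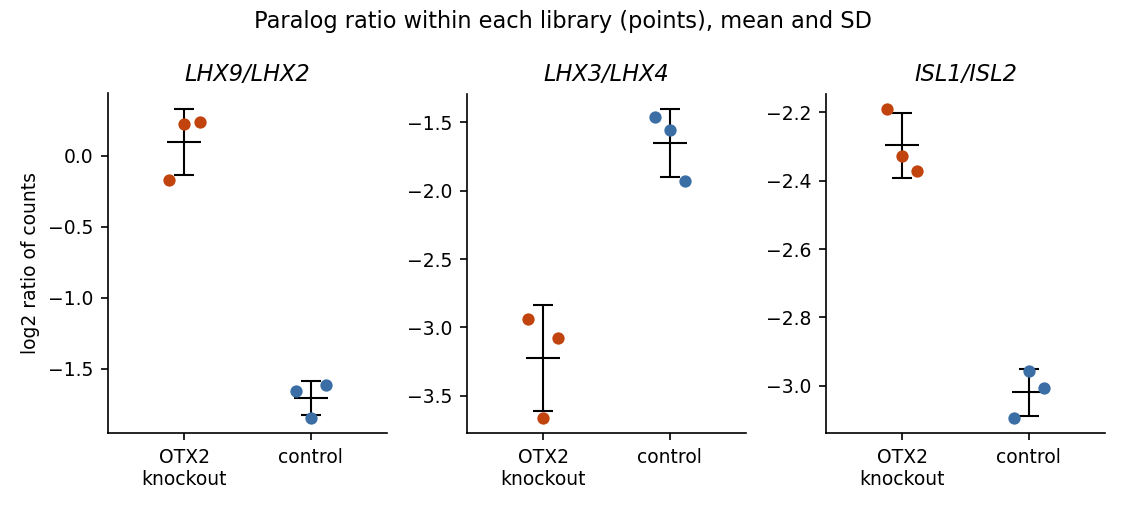
Log2 ratio of counts (vertical axes, each with its own scale) for the 3 paralog pairs in which both genes were tested, in OTX2 knockout libraries (left, orange) and control libraries (right, blue). Points are libraries and black marks are mean and SD. In each pair the 3 OTX2 knockout libraries lie apart from the 3 control libraries.

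Levels were compared between genes as CPM per kilobase of the longest annotated transcript. ISL2 was the leading member in both groups, at 11.4 ± 0.253 in OTX2 knockout cells and 13.7 ± 0.515 CPM per kilobase in control cells (SD, n = 3 each). ISL1 came second, at 1.77 ± 0.107 in OTX2 knockout cells and 1.30 ± 0.108 CPM per kilobase in control cells. In OTX2 knockout cells LHX4 at 1.05 ± 0.185 and LHX2 at 0.969 ± 0.0925 CPM per kilobase followed with overlapping ranges, then LHX9 at 0.340 ± 0.0552 and LHX3 at 0.214 ± 0.0621 without overlap. In control cells the order after ISL1 was LHX2 at 0.901 ± 0.139, LHX4 at 0.303 ± 0.0366, LHX3 at 0.183 ± 0.0475 and LHX9 at 0.0893 ± 0.0149 CPM per kilobase, with no overlap between neighbours. LHX9 thus stood above LHX3 in OTX2 knockout cells and below it in control cells, and the order was the same when levels were scaled to merged exon length.

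The make-up of the 9 listed members in the table, with LHX6 and LHX8 left out, differed between groups. This is given as a description without a test. Summed over the members, the level was 15.5, 16.1 and 15.7 CPM per kilobase in OTX2 knockout libraries, against 15.7, 17.0 and 16.8 in control libraries, and the groups overlapped. ISL2 held 72.3% ± 0.305 of this sum in OTX2 knockout cells and 83.2% ± 0.338 in control cells (SD, n = 3 each). The share of ISL1 was 11.3% ± 0.780 in OTX2 knockout cells and 7.83% ± 0.345 in control cells. LHX4 held 6.69% ± 1.16 in OTX2 knockout cells and 1.84% ± 0.304 in control cells, and LHX9 held 2.15% ± 0.306 in OTX2 knockout cells and 0.539% ± 0.0757 in control cells. Shares of 1 sum are not independent of each other, and they depend on the genes included. With LHX6 and LHX8 in the sum, ISL2 held 7.29% in OTX2 knockout cells and 8.95% in control cells. In the same order, ISL1 then held 1.14% and 0.844%, LHX4 0.671% and 0.197%, and LHX9 0.217% and 0.0582%.

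LHX6 and LHX8, the other LIM homeobox genes of the table, were chosen after their values were seen. LHX8, a factor of forebrain cholinergic neurons and of oocytes, exceeded every member, at 332 ± 18.3 CPM in OTX2 knockout cells and 324 ± 7.41 CPM in control cells (SD, n = 3 each). Of the 11 LIM homeobox genes in the table together, LHX8 made up 89.5% of the length-scaled level in OTX2 knockout cells and 88.9% in control cells. Its log2 fold change was 0.04 (BH-adjusted p = 0.612 in edgeR), and it was -0.0079 without OTX2 knockout replicate 3. An antisense RNA, AC099786.2, overlaps 507 bases of LHX8 exons, so part of the LHX8 count is uncertain. LHX6, a factor of cortical interneurons, was at 2.24 ± 0.114 CPM in OTX2 knockout cells and 2.07 ± 0.139 CPM in control cells, with an adjusted p of 0.491 in the same test.

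**Figure D4:**
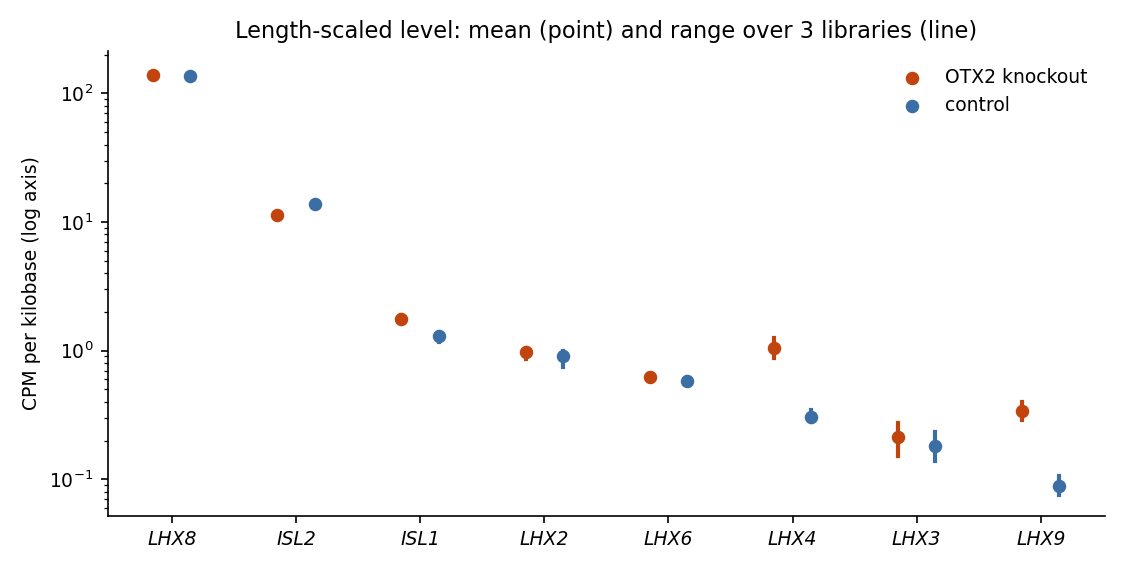
CPM per kilobase of the longest transcript on a log axis for the 8 LIM homeobox genes with enough counts to test, OTX2 knockout (orange) left of control (blue). Points are means and lines the range over 3 libraries. LHX8 is above the rest in both groups, and LHX9 and LHX4 show the widest distance between groups.

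Genes for the protein partners of the family were examined next. Of 10 genes for LIM cofactors and LIM-only proteins, 9 were tested, and 3 rose and 1 fell, beside backgrounds of 21.2% and 18.5%. Their median log2 fold change was 0.03. LDB1, the dimerising cofactor, was at 168 ± 1.87 CPM in OTX2 knockout cells and 119 ± 3.99 CPM in control cells (SD, n = 3 each), with a log2 fold change of 0.50 (SE 0.05, BH-adjusted p = 4.60e-07 in edgeR). LMO3, a LIM-only protein, rose 1.16-fold. SSBP2, a single-stranded DNA-binding protein that stabilises LDB1, rose 1.14-fold and LMO2, a LIM-only protein of blood stem cells, was 1.11-fold higher in control. The SSBP2 call was lost without OTX2 knockout replicate 2 or 3 or control replicate 2 or 3. The LMO2 call was lost without OTX2 knockout replicate 1 or 2 or control replicate 2, and with library totals in place of TMM, where its log2 fold change was -0.08. LMO1, LMO4, SSBP3, SSBP4 and RLIM did not pass, and LDB2 had too few counts to test. LDB2, the paralog of LDB1, had 9, 10 and 18 reads in OTX2 knockout libraries, against 4, 2 and 2 in control libraries. Without the filter on counts it was called higher, with a log2 fold change of 1.99 (BH-adjusted p = 0.00334 in edgeR). This made 4 of 10 genes higher, beside 4188 of all 33201 genes tested without the filter.

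Genes of the cell types in which LIM homeobox factors act were described by list, without a test of any list, and each count stands beside the 21.2% of all tested genes that were higher and the 18.5% that were lower. Among 18 genes of the rhombic lip and cerebellar nuclei, 14 were tested, and 10 rose (71.4%) and 1 fell (7.14%). The control libraries alone would not have passed 4 of the 14, and 3 of these, BARHL1, PAX6 and IRX3, were among the rises. OLIG2, a basic helix-loop-helix factor, rose to 4.26 ± 0.708 CPM in OTX2 knockout cells, against 1.23 ± 0.112 CPM in control cells (SD, n = 3 each). MEIS1, a homeobox cofactor, rose 1.39-fold, and MSX1, a roof plate homeobox gene, was 1.39-fold higher in control. BARHL1, a homeobox gene of granule and deep nuclear precursors, had 31, 68 and 48 reads in OTX2 knockout libraries, against 1, 0 and 0 in control libraries, a ratio of 131 with an exact 95% counting interval of 23.1 to 5192.

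Among 14 genes of motor neurons, where ISL1 and LHX3 act, 7 were tested. Of these, 4 rose (57.1%, beside 21.2% of all tested genes) and 0 fell (beside 18.5%). The rises were OLIG2, the nicotinic receptor subunit CHRNA3 (2.35-fold), the axon guidance ligand SLIT2 (2.02-fold) and ONECUT1 (2.82-fold). CHAT, CHRNB4 and MECOM were tested and not called, and SLC5A7 had 0 reads in every library. For Purkinje and GABA neurons, where LHX1 and LHX5 act, 4 of 7 tested of 14 listed rose (57.1%, beside 21.2%) and 0 fell (beside 18.5%). They were FOXP2 (2.88-fold), the calcium-binding CALB1 (1.62-fold), KIRREL2 (2.14-fold) and SKOR1 (1.63-fold), the last not called without OTX2 knockout replicate 1 or control replicate 1 or 2, or by DESeq2. FOXP4, RORA and PCP2 were tested and not called. GAD1, GAD2, SLC32A1 and PTF1A had too few counts to test, and SKOR2, PAX2 and PVALB had 0 reads. Of 16 retinal genes 9 were tested, and PAX6, ONECUT1 and ONECUT2 rose (33.3%, beside 21.2%) and 0 fell (beside 18.5%). PAX6, with 22, 24 and 34 reads in OTX2 knockout libraries against 3, 3 and 7 in control libraries, was tested only through the OTX2 knockout libraries.

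Among 16 genes of dopamine and serotonin neurons, where LMX1A and LMX1B act, 4 were tested. NR4A2 (1.53-fold), FOXA1 (1.31-fold), SLC18A2 (1.79-fold) and EN1 (1.63-fold) all rose, beside 21.2% of all tested genes, while FOXA2 and TH had 0 reads. The EN1 call was lost without OTX2 knockout replicate 1 or 3 or control replicate 1 or 3, and that of SLC18A2 without OTX2 knockout replicate 2 or control replicate 2. Median log2 fold changes of the tested genes were 0.43 for the rhombic lip, 1.01 for motor neurons, 0.70 for Purkinje and GABA neurons, 0.34 for the retina and 0.65 for dopamine and serotonin neurons, beside 0.01 for all tested genes. Genes that the control libraries alone would not have passed were 4 of 14 for the rhombic lip, 2 of 7 for motor neurons and 3 of 9 for the retina. These medians include them and are a description of the tested genes, not of whole lists. Some of these lists share genes, so their counts and medians are not independent of each other. OLIG2 is in the lists of the rhombic lip and motor neurons. PAX6 is in those of the rhombic lip and retina, and ONECUT1 in those of motor neurons and retina.

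**Figure D5:**
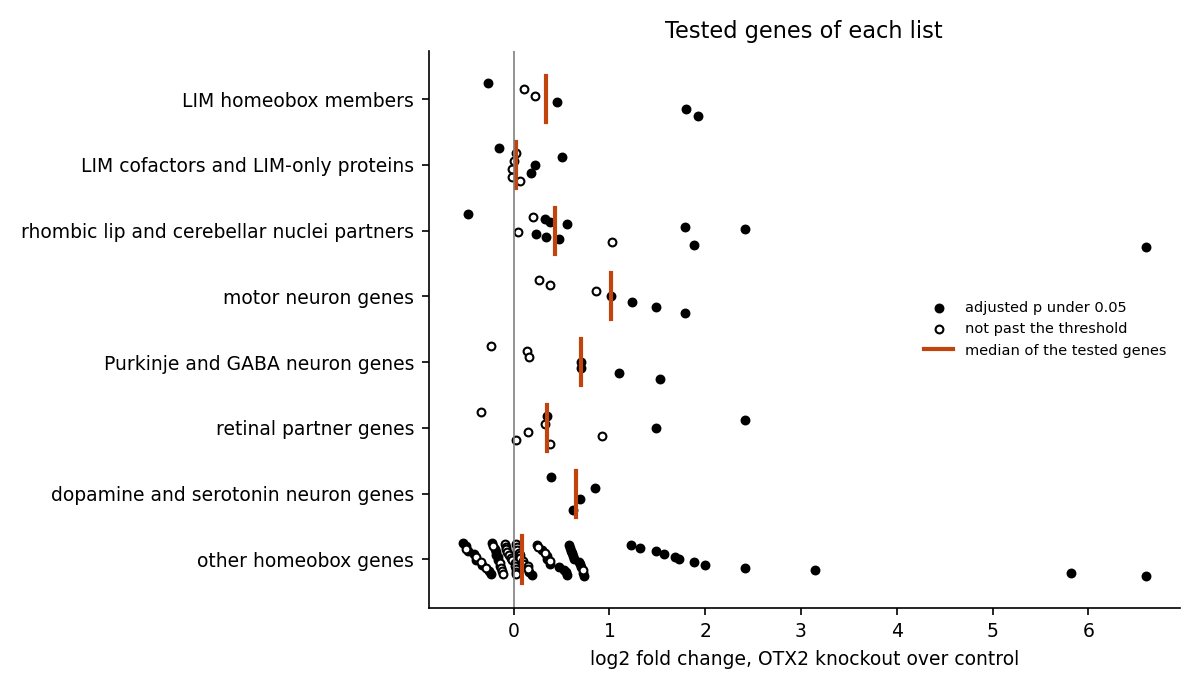
Log2 fold change of OTX2 knockout over control (horizontal axis) for the tested genes of each list (rows), with vertical position inside a row only to separate points. Filled points had an adjusted p under 0.05 and orange lines are medians over tested genes, some of which the control libraries alone would not have passed. BARHL1 and EMX1, at 6.60 and 5.82, are the points farthest to the right and had 1 and 4 reads over the control group. Some genes are in several lists and are drawn in each.

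Among 139 other homeobox genes, 84 were tested, and 34 rose (40.5%, beside 21.2% of all tested genes) and 15 fell (17.9%, beside 18.5%, a share near the background). The control libraries alone would not have passed 8 of the 84, and 7 of these, EMX1 among them, were among the rises. This list shares genes with those above, MEIS1 and MEIS2 among them. The falls were 6 with library totals in place of TMM, and 10, 9 and 9 without OTX2 knockout replicate 1, OTX2 knockout replicate 2 and control replicate 2. MEIS3, ZHX2 and EMX1 were among those with the smallest adjusted p values, all higher in OTX2 knockout cells. For each member that passed with a mean of at least 100 reads, the most similar of the 84 genes were found by the root-mean-square difference of log2 CPM, centred on the control mean, over 6 libraries. Among the 3 genes nearest to LHX4 were MEIS3 (0.27) and DLX3 (0.28), and among the 3 nearest to LHX9 were MEIS3 (0.18) and DLX3 (0.31). ISL1 was nearest to MEIS2 (0.11), MEIS1 (0.12) and HHEX (0.12), and ISL2 to ZHX1 (0.04), CUX2 (0.07) and CERS6 (0.09).

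Protein-coding genes beside the members that passed, chosen by position in RefSeq, had values of their own. QSOX1, 24344 bases from LHX4, was at 32.3 ± 0.827 CPM in OTX2 knockout cells and 20.6 ± 0.674 CPM in control cells (SD, n = 3 each), with a log2 fold change of 0.65 against 1.80 for LHX4. C1orf53, 5101 bases from LHX9, was at 2.93 ± 0.131 CPM in OTX2 knockout cells and 2.86 ± 0.156 CPM in control cells, with a BH-adjusted p of 0.808 in edgeR. NEK7, on the other side of LHX9 at 221519 bases, fell with a log2 fold change of -0.19 (BH-adjusted p = 0.0228 in edgeR), with overlapping groups. The NEK7 call was lost without OTX2 knockout replicate 1 or 2 or control replicate 2, and with library totals in place of TMM. PARP8, 536928 bases from ISL1, rose with a log2 fold change of 0.32, and PELO, 1393185 bases to its other side, fell by 0.15 on the log2 scale (BH-adjusted p = 0.0268 in edgeR). The PELO call was lost without OTX2 knockout replicate 2 or 3 or control replicate 2 or 3, with library totals and without the filter on counts. ETFA, 25303 bases from ISL2, fell with a log2 fold change of -0.28, beside -0.27 for ISL2.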

How the data were processed

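RNA libraries of 3 OTX2 knockout and 3 control infections of D283 were compared, grouped by the genotype given in the labels. The authors deposited unnormalized counts per gene symbol, with 1 column per library, and columns were assigned by title. STAR and hg38 are named per the submitters' processing notes, and no counting program, annotation, strand setting or filter is stated there. Counts were filtered with filterByExpr, scaled by TMM and tested with edgeR 4.0.16 (glmQLFit, glmQLFTest) in R 4.3.3, with Benjamini-Hochberg adjustment over 18420 genes and a threshold of 0.05. SE is the coefficient divided by the square root of F, and fold changes are ratios of mean CPM. Replicates are infections of 1 line, so p-values measure their spread. Paralog ratios used 0.5 added to each count. Coordinates, transcript lengths and overlaps came from GENCODE release 29 on GRCh38, matched by symbol for all 9 members in the table, and promoters from RefSeq. All 10 members, OTX2, cofactors past the threshold and up to 4 members of each other list by adjusted p were to be named. Members and lists were chosen with earlier results of these data known. Scripts were tested on simulated data. Alternatives were RLE, upper-quartile and library-total scaling, no filter, a filter of 1 CPM in 3 libraries, DESeq2 1.42.0, limma-voom from limma 3.58.1, glmTreat, a threshold of 0.01 and leaving out each library. Scaling to merged exon length was added after the data were seen. Some genes taken by the naming rule, and 1 of the lists, are not reported here.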

Additional observations from a re-analysis of the deposited data

How the results depend on the processing

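LHX4 and LHX9 kept their direction and call under all 15 alternatives, with log2 fold changes of 1.65 to 1.92 and 1.79 to 2.05. ISL1 (0.38 to 0.53) and ISL2 (-0.31 to -0.19) kept theirs under 14, and lost the call against a 1.5-fold change (glmTreat). There, 2 members were higher and 0 lower. Of all 18420 tested genes, 1050 were higher and only 157 lower there, which is 1207 called in all, against 7312. Leaving out 1 library gave 3 members higher and 1 lower each time, with 5897 to 7514 genes called. Among members without a call, LHX2 was -0.020 without control replicate 1 (range over single libraries left out -0.020 to 0.18) and LHX3 was -0.010 without OTX2 knockout replicate 3 (-0.010 to 0.43). LHX8 was -0.0079 there (-0.0079 to 0.079). C1orf53, beside LHX9, was -0.0015 without control replicate 1 (-0.0015 to 0.076). LHX3 had no value under the filter of 1 CPM in 3 libraries. Without a filter, LMX1A and LMX1B were tested and not called, with adjusted p of 0.338 and 0.842 by edgeR. Paralog ratio differences stayed within 1.73 to 1.94 for LHX9 to LHX2, -1.72 to -1.36 for LHX3 to LHX4 and 0.67 to 0.76 for ISL1 to ISL2 with 1 library left out. No paired analysis was possible because the labels give the groups no shared replicate numbers. Depth limits LHX3 and the members with under 10 reads a library. The causes of these dependences were not tested.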
